A study of Mus musculus with 24 samples.

Results

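Muscle stem cells, also called satellite cells, are held in a resting state in adult skeletal muscle and enter the cell cycle after injury to rebuild fibres. The comparison described here sets activated cells taken 72 h after injury against quiescent cells taken at 0 h. It covers 12 of the 24 real-time PCR arrays of the series, 6 from each group, chosen by their titles. The other 12 arrays are of activated cells at 36 and 60 h.

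All cells came from male C57BL/6 mice of 8 weeks, with no transgene or drug named in the labels. The groups are labelled QSC (quiescent stem cells) and ASC (activated stem cells), and the labels name neither a sorting gate nor the muscle or type of injury. Trizol RNA was reverse transcribed and run on TaqMan rodent microRNA cards for 40 cycles. Each group has 3 replicates, each on a card A and a card B. The series text calls the replicates technical, so every p-value below measures the spread between repeat measurements and not the spread between mice.

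A microRNA (miRNA) is a short RNA cut from a hairpin precursor. It guides a repressor complex to messenger RNAs that pair with its seed, bases 2 to 8 from its 5′ end, so miRNAs with 1 seed can share targets. The other strand of the hairpin, marked with an asterisk in older names, is often degraded. In muscle, miR-1, miR-133 and miR-206 are known as miRNAs of the myogenic lineage, and miR-489 as a miRNA of the quiescent satellite cell.

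The values are threshold cycles (Ct), the PCR cycle at which an assay's signal crosses a threshold. The level of an assay was the mean Ct of the small nuclear RNA U6 on the same array minus the Ct of the assay. This is a log2 scale on which 1 unit is 2-fold and a higher value means more RNA per U6. A change is the level at 72 h minus that at 0 h. An assay was detected where all its spots had a Ct below 35.

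The cards hold 584 miRNA assays, 375 on card A and 209 on card B, and 244 were detected in at least 2 replicates of both groups and tested. On card A, 181 to 183 assays were detected per array at 0 h and 191 to 195 at 72 h. On card B the counts were 95 to 102 and 89 to 94. Replicates lay close together, with a median SD of 0.11 at 0 h and 0.14 at 72 h on card A, and of 0.29 and 0.14 on card B. The mean U6 Ct of the 12 arrays lay between 15.02 and 15.67.

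The mature sequences below are those of the miRNAs that the results turn on, from RefSeq (GRCm38.p6), with the seed in capitals. Of the 517 assays named for mouse, 298 were matched to a RefSeq sequence by name, among them 154 of the 226 that were tested. The first set holds miRNAs from the groups described first, namely miR-31 and miR-182, muscle-enriched miRNAs, miR-21, the Calcr pair and the Dlk1-Dio3 region, with miR-676.
miR-31: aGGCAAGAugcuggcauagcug
miR-31*: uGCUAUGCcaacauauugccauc
miR-182: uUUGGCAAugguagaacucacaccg
miR-133b: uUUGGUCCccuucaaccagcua
miR-206: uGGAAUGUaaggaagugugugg
miR-21: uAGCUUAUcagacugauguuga
miR-489: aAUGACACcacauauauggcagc
miR-653: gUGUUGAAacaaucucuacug
miR-127: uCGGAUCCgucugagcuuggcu
miR-434-3p: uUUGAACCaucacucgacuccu
miR-433: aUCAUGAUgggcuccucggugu
miR-676: cCGUCCUGagguuguugagcu

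The second set groups miRNAs that share a seed, because several such groups held members that changed in opposite directions. The first 5 below carry the seed of miR-15 and miR-16, the next 6 that of miR-17, the next 2 that of miR-25, the next 4 that of let-7, and the last 8 are same-seed pairs from separate or shared transcripts.
miR-322: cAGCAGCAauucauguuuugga
miR-15b: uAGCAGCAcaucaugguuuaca
miR-16: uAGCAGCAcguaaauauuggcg
miR-195: uAGCAGCAcagaaauauuggc
miR-497: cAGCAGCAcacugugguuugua
miR-17: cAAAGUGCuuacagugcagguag
miR-106a: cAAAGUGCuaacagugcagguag
miR-20a: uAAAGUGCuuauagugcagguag
miR-20b: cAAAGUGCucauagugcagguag
miR-93: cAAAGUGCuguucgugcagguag
miR-106b: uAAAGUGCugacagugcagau
miR-25: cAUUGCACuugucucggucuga
miR-92a: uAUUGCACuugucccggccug
let-7i: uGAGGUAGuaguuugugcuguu
let-7g: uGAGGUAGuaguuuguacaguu
let-7b: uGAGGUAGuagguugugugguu
let-7c: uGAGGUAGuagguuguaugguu
miR-221: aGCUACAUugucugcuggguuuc
miR-222: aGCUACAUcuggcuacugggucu
miR-99a: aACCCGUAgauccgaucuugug
miR-99b: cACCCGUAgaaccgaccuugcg
miR-125a-5p: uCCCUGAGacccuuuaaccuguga
miR-125b-5p: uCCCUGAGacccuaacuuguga
miR-130a: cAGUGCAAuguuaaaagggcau
miR-301a: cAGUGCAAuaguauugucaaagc

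At 72 h, 51 assays were higher and 112 were lower than at 0 h, among them strong rises of miR-31, miR-182 and miR-133b and strong falls of miR-489 and of the miRNAs of the imprinted Dlk1-Dio3 region. A call needed an adjusted p below 0.05 (limma, Benjamini-Hochberg over both cards) and a change of at least 2-fold. Of the 244 assays tested, 66.8% were called, 20.9% higher and 45.9% lower, so a call by itself sets no miRNA apart. In total RNA from a cell preparation, fewer cells of a type and less of an RNA per cell cannot be told apart. On card A, 34 assays were higher and 90 lower, with a median change of -1.37 over all tested. Card B had 17 higher and 22 lower, with a median of -0.28. Changes of 8-fold or more were found for 18 assays upward and 44 downward.

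**Figure D1:**
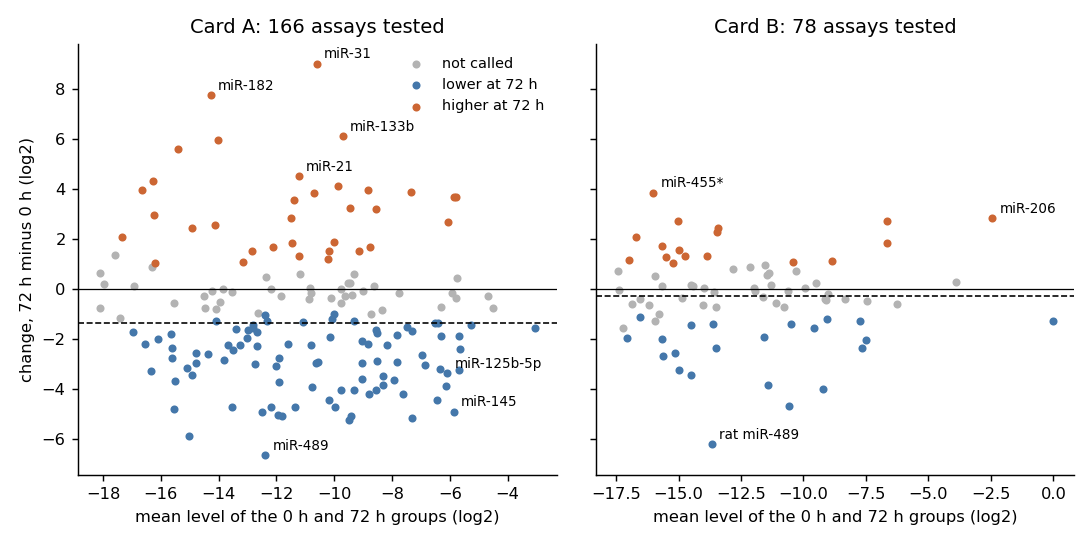
Change of each tested assay (72 h minus 0 h, log2, vertical axis) against its mean level over both groups (log2 relative to U6, horizontal axis), for cards A and B; orange marks assays called higher, blue called lower and grey not called, and the dashed line is the card's median change. The median lies at -1.37 on card A and at -0.28 on card B, and miR-31 (9.01) lies farthest above 0 and miR-489 (-6.66) farthest below.

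How many assays rose or fell depended on the RNA chosen as the reference. Against U6 on card A, snoRNA202 fell by 3.05, snoRNA135 by 0.87 and Y1 by 0.32, and U87 was 2.83-fold lower. On card B, snoRNA202 fell by 2.61, snoRNA429 by 1.84, U87 by 1.08 and snoRNA135 by 0.35, and Y1 was 0.72 higher. With snoRNA202 as the reference, 166 assays were higher and 24 lower, with a median change of 2.04. With snoRNA135 the counts were 65 and 85 (median -0.17), and with the global mean, that of assays detected on every array of a card, 72 and 79 (median -0.10), against -0.77 with U6. For assays detected on all arrays, snoRNA202 adds 3.05 to each change on card A and 2.61 on card B, so every smaller fall given below turns into a positive value with it. All 51 rises were called under each of these 4 references, and 24 of the 112 falls were. Which of the reference RNAs held its amount per cell was not tested, and the differences within an array given below do not depend on it.

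**Figure D2:**
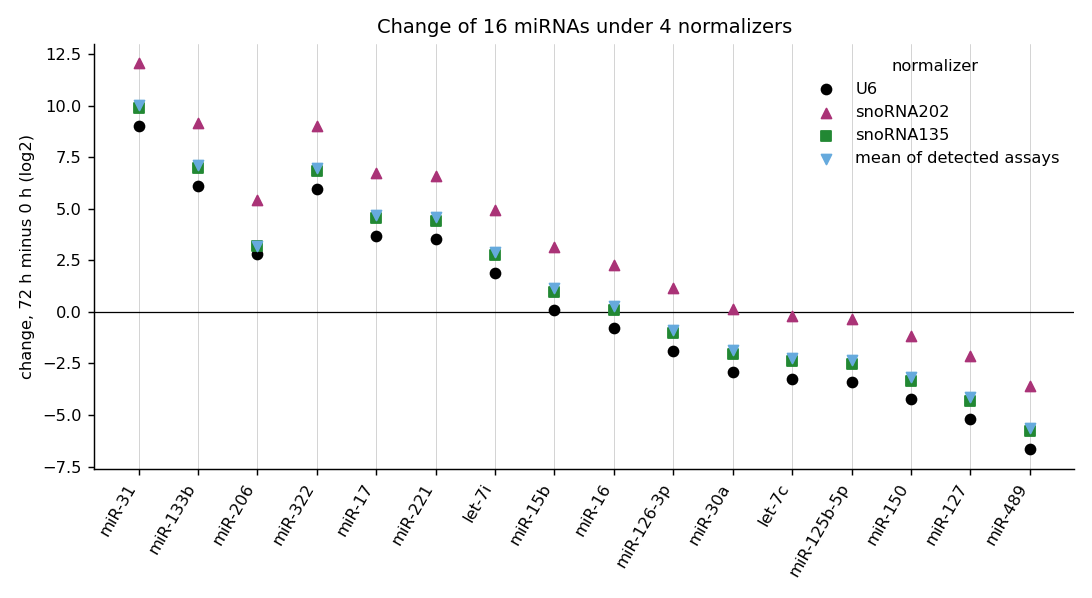
Change at 72 h against 0 h (log2, vertical axis) of 16 miRNAs relative to U6, to snoRNA202, to snoRNA135 and to the global mean. miR-31 to let-7i lay above 0 and miR-150, miR-127 and miR-489 lay below 0 under each of the 4, whereas miR-126-3p and miR-30a changed sign with snoRNA202 (1.16 and 0.15) and miR-16 with all 3 others.

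Among the assays detected on all arrays of both groups, miR-31 showed the largest rise. Its level was -14.89, -15.13 and -15.31 on the 0 h arrays and -6.13, -6.02 and -6.16 on the 72 h arrays. The groups were separated by far more than the spread within either, with a change of 9.01 ± 0.09 (SE, n = 3 against 3), or 516-fold (limma, adjusted p = 3.36e-13). The mature strand lies at chr4:88910614-88910635 on the minus strand. The other strand of the same hairpin, miR-31*, had no Ct below 35 on any 0 h array and levels of -8.28, -8.51 and -8.47 at 72 h. This makes it at least 2082-fold higher when the 0 h group is set at Ct 35, the largest bound of all assays detected at 72 h alone, meaning on all 3 arrays of that group and on at most 1 of the other.

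miR-182 shares a cluster with miR-183 and miR-96 that is known from sensory organs and from proliferating cells. Its level was -17.69, -19.47 and -17.28 at 0 h, near the limit of detection, and -10.38, -10.25 and -10.59 at 72 h. The change was 7.74 ± 0.45 (limma, adjusted p = 6.34e-08). miR-183 was not detected on any 0 h array and had levels of -16.20, -16.55 and -15.83 at 72 h, at least 10.8-fold higher. miR-96 and miR-183* were undetected in both groups.

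The muscle-enriched miRNAs rose together, and all 5 tested assays of that group were called higher, where 20.9% of all tested assays were. miR-133b went from -12.59, -12.71 and -13.02 at 0 h to -6.58, -6.58 and -6.82 at 72 h, a change of 6.11 ± 0.11 (limma, adjusted p = 6.06e-12). miR-133a, which is encoded elsewhere, went from -10.17, -10.07 and -10.21 to -6.87, -6.97 and -7.02, a smaller change of 3.20 ± 0.07. miR-206, on card B, read -4.06, -3.80 and -3.71 at 0 h and -0.99, -1.03 and -1.07 at 72 h. Its change was 2.83 ± 0.12 (limma, adjusted p = 1.08e-09). The groups did not overlap for any of the 3, which was so for 193 of the 226 assays detected on all arrays of both groups (85.4%).

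RefSeq places miR-206 (chr1:20679055-20679076) and miR-133b (chr1:20682834-20682855) within the span of 1 gene, Lincmd1. miR-1 was measured by a mouse assay, with a change of 2.56 ± 0.24, and by a rat assay, with 2.81 ± 0.08, and both were called higher. The heart and slow-fibre members miR-208, miR-208b and miR-499 were undetected in both groups.

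The cluster of miR-322 and miR-503 on chromosome X is known to be induced when myoblasts leave the cell cycle. Of its 4 tested assays, 3 were higher, where 20.9% of all tested assays were. A further 3 were detected at 72 h alone, where 4.45% of all assays were. miR-322 went from -16.40, -17.75 and -16.86 to -10.95, -11.03 and -11.15, a change of 5.96 ± 0.28 (limma, adjusted p = 1.09e-08). Its other strand, miR-322*, rose by 1.29 ± 0.32, but with 0 h replicate 2 left out this was 0.92 and no longer reached 2-fold. miR-503* rose by 1.31 ± 0.17. miR-503 was undetected on the 0 h arrays and had levels of -15.65, -15.72 and -15.76 at 72 h, at least 15.1-fold higher, and miR-450a-5p was at least 7.55-fold higher. miR-542-3p was not called, with 0.62 ± 0.36. The rat assay of miR-351, a further member, was detected on 1 of 3 arrays at 0 h and on 3 of 3 at 72 h, where it was 138-fold above the highest 0 h signal. The mouse assay of miR-351 was undetected in both groups.

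The oncogenic miR-17-92 cluster and its paralogs are known to promote proliferation, and most of their members rose. Of the 10 assays tested, 8 were higher and none was lower, where 20.9% and 45.9% of all tested assays were. miR-19a changed by 4.11 ± 0.07, miR-20b by 3.96 ± 0.17 and miR-20a by 3.89 ± 0.06. A rat assay of miR-20b-5p on card B was also higher, but by only 1.03 ± 0.25, so the size of the miR-20b rise is uncertain. The levels of miR-17 were -7.59, -7.63 and -7.65 at 0 h and -3.86, -3.90 and -4.08 at 72 h, a change of 3.68 ± 0.07 (limma, adjusted p = 9.17e-12). miR-18a was detected on 1 of 3 arrays at 0 h and at -9.90, -10.12 and -10.19 at 72 h, 368-fold above its highest 0 h signal. All 6 assays with the seed AAAGUGC were higher.

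The members with the seed AUUGCAC behaved differently. miR-92a, the last hairpin of the miR-17-92 transcript, had levels of -4.59, -4.47 and -4.52 at 0 h and -4.75, -4.75 and -4.98 at 72 h, a change of -0.30 ± 0.07 that did not reach 2-fold. RefSeq gives the miR-92a sequence 2 loci, so its assay can read more than the miR-17-92 transcript. miR-25, from the miR-106b/25 transcript, changed by -0.39 ± 0.09. The same transcript gave miR-93 with 3.23 ± 0.06 and miR-106b with 1.49 ± 0.08. miR-363 was found only on the 0 h arrays, with levels of -19.03, -16.96 and -17.92, near the limit. The 2 assays miR-17 and miR-106a, whose sequences differ at 1 base, read within 0.13 of each other on all 6 arrays, so how much of each signal comes from the other miRNA cannot be told apart.

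**Figure D3:**
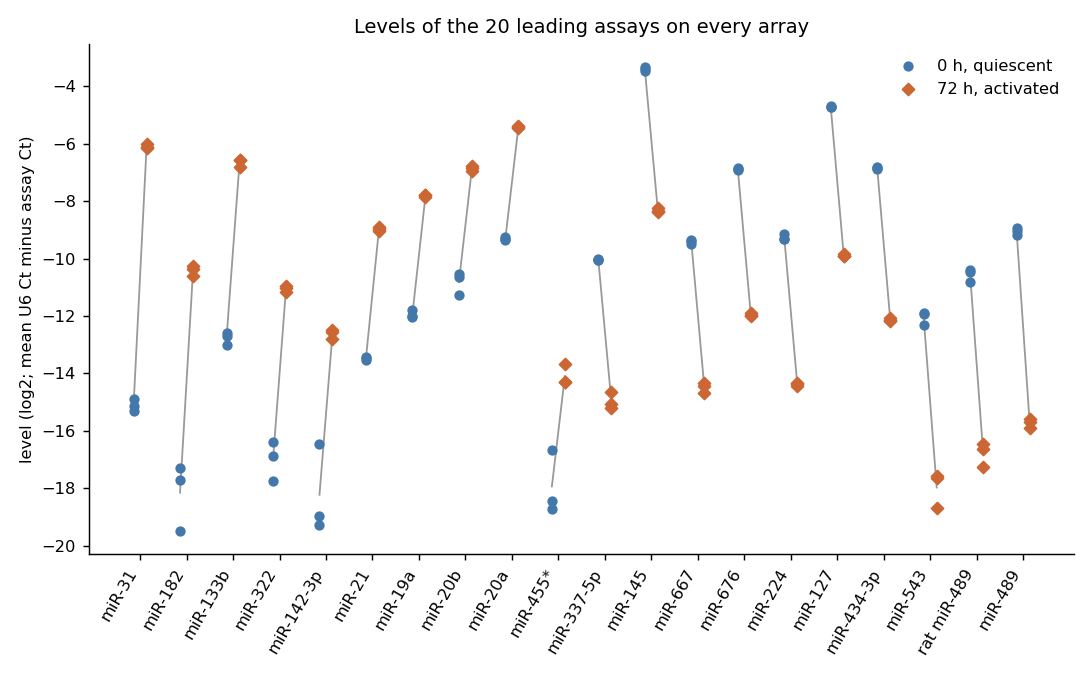
Level of the 10 largest rises and 10 largest falls among called assays detected on all arrays (log2, mean U6 Ct minus assay Ct, vertical axis), on each of the 3 arrays at 0 h (blue circles) and at 72 h (orange diamonds), with a grey line joining the group means. The 20 were chosen among assays whose groups do not overlap. miR-182, miR-142-3p and miR-455* show the widest spread at 0 h, where they lie near the limit of detection.

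Other rises came from miRNAs outside these clusters. miR-21, an abundant miRNA of growing and injured tissue, went from -13.51, -13.43 and -13.48 to -8.92, -9.03 and -8.98, a change of 4.49 ± 0.06 (limma, adjusted p = 1.05e-12). miR-221 went from -13.28, -13.18 and -13.07 to -9.60, -9.51 and -9.78, a change of 3.55 ± 0.09. Both tested assays of the miR-34 and miR-449 list were higher, where 20.9% of all tested assays were. These were miR-34b-3p, by 1.31 ± 0.10, and miR-449a, by 4.30 ± 0.55 with 2 of 3 arrays detected at 0 h. miR-34b-3p has the seed AUCACUA, which it shares with miR-34c*, and miR-34c* was not called (0.89 ± 0.18). miR-7b rose by 3.94 ± 0.44, also with 2 of 3 arrays detected at 0 h. miR-335-3p, from the imprinted gene Mest, rose by 1.69 ± 0.11, and miR-675-3p, from H19, was detected at 72 h alone and was at least 13.4-fold higher.

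Among the assays tested in both groups, miR-489 showed the largest fall. Its mouse assay on card A read -9.19, -9.05 and -8.93 at 0 h and -15.58, -15.91 and -15.68 at 72 h. The change was -6.66 ± 0.16, a 101-fold decrease (limma, adjusted p = 5.75e-11). The rat assay of miR-489 on card B gave -10.81, -10.41 and -10.46 at 0 h and -17.27, -16.61 and -16.45 at 72 h, a change of -6.21 ± 0.22. Both assays fell by far more than the spread within either group. RefSeq places miR-489 (chr6:3721922-3721944, minus strand) within the span of Calcr, the calcitonin receptor gene, a marker of quiescent satellite cells. miR-653 (chr6:3721355-3721375, minus strand) lies in the same gene. It had levels of -14.66, -14.10 and -13.87 at 0 h, was not detected at 72 h, and was 32.7-fold above its highest 72 h signal.

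The Dlk1-Dio3 region of chromosome 12 holds a large imprinted group of miRNAs expressed from the maternal allele. All 22 tested assays of the list drawn up for the region were lower at 72 h, with a median change of -3.90 and a range of -5.92 to -2.26, where 45.9% of all tested assays were lower. Of the 56 assays of the list, a further 8 were detected at 0 h alone, where 4.79% of all assays were. None was detected at 72 h alone, where 4.45% of all assays were, and 23 were undetected in both groups. In RefSeq order, the first cluster of matched sequences (chr12, mature starts from 109585818 to 109595366) had 6 of 6 tested assays lower, and the second (109709065 to 109743764) had 15 of 15. The second count includes miR-376b* (-3.85 ± 0.24) and miR-485* (-4.71 ± 0.16), which the list does not hold. With snoRNA202 as the reference, 10 of the 22 were still called lower and none was higher.

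Within the region, miR-127 lies antisense to Rtl1 and went from -4.68, -4.73 and -4.74 at 0 h to -9.85, -9.92 and -9.91 at 72 h. The change was -5.17 ± 0.07 (limma, adjusted p = 1.05e-12). miR-434-3p changed by -5.27 ± 0.05, miR-543 by -5.92 ± 0.32 and miR-667 by -5.07 ± 0.13. The mean level of miR-543 at 72 h, -17.97, was near the limit of detection, and the rat assay of miR-543 was undetected in both groups. The smallest falls were those of the rat assay of miR-381, -2.26 ± 0.13, and of miR-494, -2.31 ± 0.19. miR-433 had levels of -9.32, -9.19 and -9.22 at 0 h and no Ct below 35 at 72 h, so it was at least 1596-fold lower. miR-370 was at least 113-fold lower and miR-431 at least 111-fold lower. miR-382 read -8.55, -8.47 and -8.24 at 0 h and was detected on 1 array at 72 h, and its 0 h mean was 206-fold above the highest 72 h signal.

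Outside these regions, large falls included those of miR-224, miR-676, miR-145, miR-23b and miR-708, and of miR-10b and miR-696, which were detected on at most 1 array at 72 h. miR-676, within Eda, went from -6.87, -6.91 and -6.84 to -11.90, -12.00 and -11.95, a change of -5.08 ± 0.06 (limma, adjusted p = 3.88e-13). miR-224, within Gabre, changed by -5.11 ± 0.09 in its mouse assay but by -1.97 ± 0.09 in its rat assay, so the size of its fall is uncertain. miR-204, within Trpm3, changed by -4.46 ± 0.10. miR-23b changed by -4.75 ± 0.09 and miR-708, within Tenm4, by -4.75 ± 0.07. miR-10b, from a Hox cluster, read -12.49, -11.46 and -11.20 at 0 h and was detected on 1 of 3 arrays at 72 h, and its 0 h mean was 114-fold above the highest 72 h signal.

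A list of miRNAs known from myogenic differentiation moved in both directions. Of its 7 tested assays, 4 were lower (miR-26a, miR-181a, miR-24 and miR-29c), 1 was higher (miR-378, 1.11 ± 0.14), and miR-378* and miR-29b were not called. Of all tested assays, 45.9% were lower and 20.9% higher, so these counts do not set the list apart. In the miR-30 family all 5 tested members were lower, where 45.9% of all tested assays were, from -2.94 ± 0.09 (miR-30d) to -1.88 ± 0.06 (miR-30b). miR-26a changed by -3.90 ± 0.06 and miR-26b by -2.94 ± 0.07. miR-181a changed by -3.11 ± 0.13 and miR-181c by -3.30 ± 0.24. These decreases rest on the reference RNA: with snoRNA202, none of the 9 miR-30, miR-26 and miR-181 assays was called lower, and miR-30b was called higher. With snoRNA135 all 9 were lower.

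**Figure D4:**
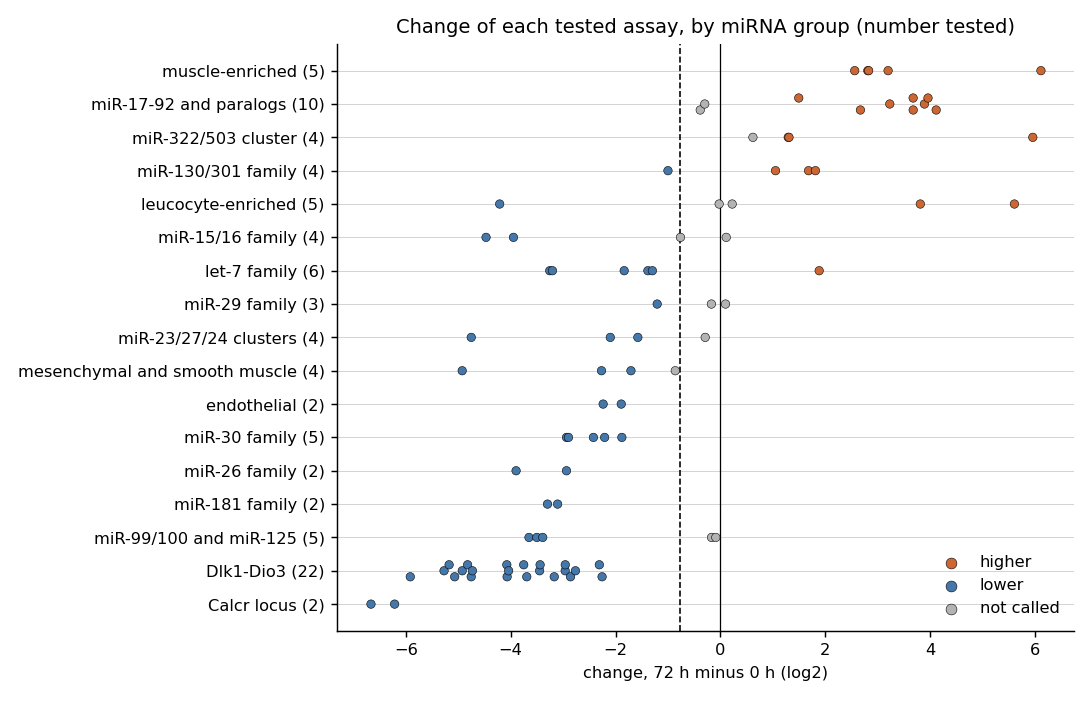
Change of every tested assay at 72 h against 0 h (log2, horizontal axis) in 17 groups of miRNAs, with the number tested in parentheses; orange marks assays called higher, blue called lower and grey not called. The dashed line is the median over all 244 tested assays (-0.77). The 5 muscle-enriched assays lie between 2.56 and 6.11 and the 22 Dlk1-Dio3 assays between -5.92 and -2.26.

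Members of 1 seed family were compared in pairs. Among matched mouse assays, 19 seeds had 2 or more tested members, and these gave 68 pairs on 1 card. The 2 members had the same call in 42 pairs, opposite calls in 10 pairs and 1 call of the 2 in 16. The 42 include pairs in which neither member was called, and many pairs share a member. Of all tested assays, 20.9% were higher and 45.9% lower. The share of same calls among pairs of unrelated assays was not counted, so these counts do not set seed families apart. For 2 assays of 1 array the reference RNA cancels, so the difference between their levels can be followed without it. Each assay has its own efficiency, so the difference shows a change in ratio between the groups and not which miRNA was more abundant.

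The widest such separation was in the miR-15/16 seed family. miR-195 and miR-497, which share a transcript on chromosome 11, changed by -4.47 ± 0.06 and -3.95 ± 0.07. miR-15b changed by 0.11 ± 0.05 and miR-16 by -0.76 ± 0.06, and neither was called. miR-322 carries the same seed and rose. The level of miR-322 minus that of miR-195 was -12.12, -13.59 and -12.71 at 0 h and -2.18, -2.40 and -2.56 at 72 h, a shift of 10.4. miR-15b minus miR-195 went from -4.42, -4.47 and -4.54 to 0.28, 0.08 and -0.05, a shift of 4.58.

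The let-7 family is known to restrain growth and to accumulate in differentiated cells. 5 of its 6 tested members were lower, where 45.9% of all tested assays were, and 1 was higher. let-7c (-3.26 ± 0.08) and let-7b (-3.20 ± 0.10) fell most. That member was let-7i, at -11.06, -10.85 and -10.90 at 0 h and at -9.08, -9.11 and -8.97 at 72 h, a change of 1.88 ± 0.07 (limma, adjusted p = 2.06e-09). let-7i minus let-7c went from -6.98, -6.69 and -6.99 to -1.76, -1.83 and -1.65. let-7i minus let-7g, whose sequences differ at 2 bases, went from -2.32, -2.16 and -2.28 to 0.95, 0.79 and 1.05. let-7b minus let-7c, by contrast, was -0.70 ± 0.25 (SD, n = 3) at 0 h and -0.64 ± 0.06 at 72 h. The sequences of let-7b and let-7c differ at 1 base, so how much of each signal comes from the other miRNA cannot be told apart. With snoRNA202 none of the family was called lower and 4 were called higher, and the order of the members was as before because all lie on card A.

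The miR-99/100 and miR-125 miRNAs come from separate transcripts that also carry let-7 members. miR-99a, miR-100 and miR-125b-5p changed by -3.50 ± 0.09, -3.65 ± 0.11 and -3.39 ± 0.04. Their paralogs on chromosome 17, miR-99b (-0.09 ± 0.12) and miR-125a-5p (-0.17 ± 0.06), were not called. miR-125a-5p minus miR-125b-5p went from -3.29, -3.20 and -3.32 at 0 h to -0.07, -0.08 and 0.01 at 72 h. miR-99b minus miR-99a went from -2.06, -2.58 and -2.56 to 1.09, 0.95 and 0.99. The third miRNA of the chromosome 17 cluster, let-7e, changed by -1.38 ± 0.10.

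miR-221 and miR-222 are neighbours on chromosome X (chrX:19146307-19146329 and chrX:19146901-19146923) and share the seed GCUACAU. miR-222 read -5.97, -5.94 and -5.99 at 0 h and -5.44, -5.45 and -5.69 at 72 h, a change of 0.44 ± 0.08 that did not reach 2-fold with U6 but did with each of the other 3 references, while miR-221 rose 11.7-fold. Their difference moved from -7.30, -7.24 and -7.08 to -4.16, -4.06 and -4.09. Among the miRNAs related to miR-130, miR-301b (1.81 ± 0.08), miR-301a (1.68 ± 0.09) and miR-130b (1.05 ± 0.13) were higher. miR-130a was lower, from -9.61, -9.51 and -9.39 to -10.59, -10.34 and -10.59, just past 2-fold, and this call was lost without 0 h replicate 3 or 72 h replicate 1 or 3 (-0.94, -0.96 and -0.96). miR-130b likewise missed 2-fold without 0 h replicate 1 (0.97). miR-301a minus miR-130a still moved, from -3.57, -3.27 and -3.51 to -0.75, -0.82 and -0.74.

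In the miR-23/27/24 clusters, miR-27b changed by -2.10 ± 0.10 and miR-27a, from the other cluster, by -0.29 ± 0.06. The sequences of the pair differ at 1 base, and miR-27a minus miR-27b went from -1.51, -1.43 and -1.49 to 0.21, 0.30 and 0.49. In the miR-29 family, miR-29c was lower (-1.21 ± 0.10), and miR-29a (-0.17 ± 0.08) and miR-29b (0.10 ± 0.36) were not called. Among the relatives of miR-148, miR-148b rose by 2.06 ± 0.34 with 2 of 3 arrays detected at 0 h, and miR-152 fell by 1.93. miR-148a was not called at -0.97 ± 0.12, and it passed 2-fold without 0 h replicate 3 (-1.02) or 72 h replicate 1 (-1.10).

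**Figure D5:**
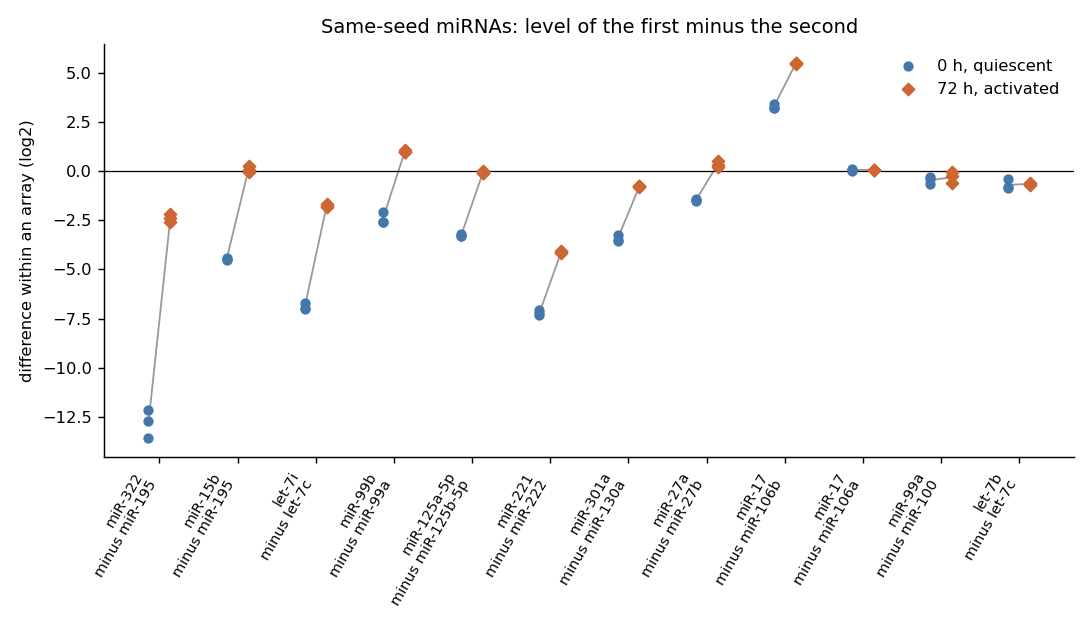
Difference between the levels of 2 miRNAs with 1 seed on the same array (first minus second, log2, vertical axis), on each of the 3 arrays at 0 h (blue circles) and 72 h (orange diamonds), with a grey line joining the group means. The pairs were chosen after their values were seen. The first 9 do not overlap between the groups, from miR-322 minus miR-195 with a shift of 10.4 to miR-27a minus miR-27b with 1.81, and the last 3 pairs overlap.

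Both strands of a hairpin could be compared on the same array for 13 hairpins, and in 8 of them (61.5%) the ratio of the strands changed at least 2-fold (limma, adjusted p below 0.05). The widest change was in miR-125b, whose 5p level minus 3p level went from 11.74, 12.62 and 12.68 at 0 h to 7.46, 8.93 and 7.88 at 72 h, a change of -4.26 ± 0.38. RefSeq gives the 5p sequence 2 loci, so its assay can read more than 1 hairpin. The 3p assay changed by 0.87, whereas on card B the assays of miR-125b* were lower. These changed by -2.68 ± 0.32 (mouse) and -2.03 ± 0.17 (rat), so the size of this strand change is uncertain. Whether the strand opposite 5p rose or fell is uncertain too. In miR-434, 5p minus 3p went from -6.94, -6.46 and -6.57 to -4.93, -4.59 and -4.15, a change of 2.10 ± 0.23, so the 3p strand fell more than the 5p strand. miR-324 changed by 1.64 ± 0.14, miR-125a by 1.43 ± 0.19, miR-877 by 1.23 ± 0.22 and miR-340 by 1.00 ± 0.26 (5p minus 3p, or main minus asterisk strand, for each).

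miR-335 changed the other way, by -1.47 ± 0.17. Its 5p strand was not called (0.22 ± 0.10) and its 3p strand rose. miR-337 changed by -1.48 ± 0.43, with both strands lower. The 5 hairpins not called were miR-378, miR-22, miR-532, miR-126 and miR-331, with differences of 0.99, -0.73, 0.65, -0.35 and -0.22.

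For 22 further hairpins the strands lay on separate cards, so their comparison depends on the U6 of each card, and it was not tested. They had the same call in 13 hairpins and opposite calls in 1. That one was miR-467a, at 2.42 ± 0.26, whose asterisk strand changed by -1.21 ± 0.26. miR-455 was not called (-0.58 ± 0.15), while miR-455* read -18.42, -18.70 and -16.67 at 0 h and -13.68, -14.29 and -14.30 at 72 h, a rise of 3.84 ± 0.43. miR-93 rose and miR-93* was not called (-0.42 ± 0.12). miR-99b was not called and miR-99b* rose by 2.27 ± 0.19.

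Of the 584 assays, 26 (4.45%) were detected on all 3 arrays at 72 h and on at most 1 at 0 h, and 28 (4.79%) the other way. Those at 72 h were led by miR-31*, followed by miR-374, at -9.47, -9.30 and -9.25 and at least 1102-fold higher. miR-130b* was at least 72.2-fold higher and miR-20a* at least 25.6-fold higher, and the main strands of both hairpins rose. The rat assay of miR-20a*, also on card B, was undetected in both groups. Those at 0 h alone were led by miR-433. miR-696, at -12.56, -12.94 and -11.54, was at least 133-fold lower at 72 h. The bounds come from group means and set the undetected group at Ct 35.

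Markers of other cell types moved in both directions. Of the leucocyte-enriched list, 5 of 6 assays were tested. miR-142-3p rose from -19.26, -16.45 and -18.95 to -12.56, -12.79 and -12.49, a change of 5.61 ± 0.59 (limma, adjusted p = 7.80e-06). miR-223, a miRNA of neutrophils and monocytes, rose from -12.54, -12.61 and -12.72 to -8.76, -8.75 and -8.93, a change of 3.81 ± 0.07. miR-150, a miRNA of mature lymphocytes, fell from -5.54, -5.51 and -5.55 to -9.61, -9.71 and -9.91, a change of -4.21 ± 0.08. miR-155 (0.22) and miR-146a (-0.03) did not reach 2-fold. The summed level of the 6 assays (log2 of their sum on the linear scale) lay between -5.38 and -5.34 at 0 h and between -7.42 and -7.28 at 72 h. Such a sum adds assays of unequal efficiency, and at 0 h it lies close to the mean of miR-150 alone (-5.53). miR-142-5p and the erythroid miR-451 were each detected on 1 array at 72 h and on none at 0 h.

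The endothelial pair miR-126-3p (-1.89 ± 0.05) and miR-126-5p (-2.24 ± 0.06) was lower. Of the smooth muscle and fibroblast list, miR-145 fell from -3.47, -3.34 and -3.40 to -8.36, -8.26 and -8.37, a change of -4.93 ± 0.06 (limma, adjusted p = 3.88e-13). miR-143 (-2.27 ± 0.08) and miR-214 (-1.71 ± 0.05) were also lower, and miR-199a-3p (-0.86 ± 0.05) was not called. The summed level of the endothelial pair lay between -4.52 and -4.44 at 0 h and between -6.42 and -6.40 at 72 h, and that of the 5 smooth muscle and fibroblast assays between -3.23 and -3.11 at 0 h and between -6.82 and -6.75 at 72 h. The epithelial miR-200a, miR-200b, miR-141, miR-205 and miR-429, the neural miR-124 and miR-137 and the liver miR-122 were undetected in both groups. Other members of these lists were detected. The neural miR-128a was found on all arrays of both groups and was not called (-0.52 ± 0.11). The neural miR-9 and the epithelial miR-200c were each detected on 1 array at 72 h. miR-141*, the other strand of miR-141, was found on all arrays of both groups and was not called (-0.10 ± 0.13). miR-203 fell by 2.97. With snoRNA202 as the reference, miR-126-3p and miR-214 were called higher, and miR-145 and miR-150 stayed lower. The part of other cell types in the results above was not tested.

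Against the nearest earlier time, 60 h, 265 assays could be tested, and 2 (0.755%) were higher and 95 (35.8%) lower at 72 h. Together 36.6% were called. This comparison uses the same 72 h arrays as the one above, so the 2 are not independent. The 2 that rose were miR-133a, by 1.01 ± 0.07, and miR-503, by 1.18 ± 0.21 (limma, adjusted p = 1.17e-06 and 0.0014). Both calls were lost without 60 h replicate 2, where no assay was called higher, and 4 assays were called higher without 72 h replicate 2. All 5 muscle-enriched assays had positive values against 60 h, from 0.34 to 1.01, and 3 to 5 of them were called higher with the other references.

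All 11 tested assays of the miR-17-92 group were lower at 72 h than at 60 h (-1.85 to -1.29), where 35.8% of all tested assays were. With snoRNA202, snoRNA135 and the global mean as the reference, 3, 5 and 0 of the 11 were called, and all 11 values stayed below 0. The other control RNAs of card A were themselves below their 60 h level, by -0.64 for snoRNA202, -0.53 for snoRNA135, -0.45 for U87 and -0.43 for Y1. On card B these values were -0.06, 0.06, -0.05 and 0.47. miR-489 was lower again, by -1.81 ± 0.16.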

How the data were processed

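Per the file headers, the authors deposited 1 file per array with a Ct per spot, empty where none was reached, and these Ct values, an inverse log2 scale, are used as deposited. Neither labels nor headers state which software or threshold gave them. The authors' 2 tables with dCt and fold values were not used: their headers name day 3.5 as the last time, where the labels give 72 h, so 84 per-sample columns were left out. The card of an array was read from its assay names.

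Spots of an assay were averaged. Levels (mean U6 Ct of the array minus assay Ct) were fitted per card with limma 3.58.1 in R 4.3.3 over all 12 arrays of the card, with undetected values left out, and p-values were adjusted over both cards. Errors after ± are standard errors of this fit unless SD is written. An assay needed 2 detected replicates in both groups. On simulated data for 72 h against 0 h (244 assays), the fit called 92.1% of changes of 1.5 and 100% of changes of 3, and 0 of 171 unchanged assays. The simulated levels held the spread between replicates but no error or shift of the reference RNA. They therefore do not show how often a change of the reference would give a false call. The control RNAs were fitted with the miRNAs and carry no adjusted p.

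The named assays are the 10 largest changes each way among called assays with no overlap, the 6 largest bounds each way, up to 4 members of each list, all members of 5 short lists, the 5 widest strand pairs each way, and the controls. Any other assay was named after its values were seen. Same-seed pairs, strands across cards and genome order were described after the values were seen, with no test. The members and lists were chosen with earlier results of these data known. Sequences were matched by name, with the strand of older names taken from common usage. Alternatives were other references, detection limits, replicates, fits and blocks.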

Additional observations from a re-analysis of the deposited data

How the results depend on the processing

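With snoRNA202 the counts at 72 h against 0 h were 166 higher and 24 lower, and with undetected values set at Ct 35 there were 77 higher. Leaving out each replicate gave 42 to 50 higher, 109 to 118 lower and 7 to 9 unequal hairpins. Against 60 h, snoRNA202, snoRNA135, the global mean and a limit of Ct 32 gave 9, 8, 25 and 1 higher, and the first 3 gave 37, 51 and 17 lower, while leaving out each replicate gave 0 to 4 higher and 89 to 97 lower. The counts of assays detected in 1 group alone and of unequal hairpins stayed within 1.5 times under each alternative run.

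Among the 84 named assays, 27 reversed with snoRNA202 (log2 change): let-7d 1.21, miR-10a 0.045, miR-125a-5p 2.88, miR-126-3p 1.16, miR-126-5p 0.81, miR-128a 2.52, miR-130a 2.05, miR-143 0.78, miR-148a 2.08, miR-152 1.12, miR-16 2.28, miR-192 1.75, miR-194 0.59, miR-196b 2.64, miR-199a-3p 2.19, miR-203 0.079, miR-214 1.34, miR-24 1.47, miR-26b 0.11, miR-27a 2.76, miR-27b 0.95, miR-29a 2.88, miR-29c 1.84, miR-30a 0.15, miR-30c 0.63, miR-30d 0.11 and miR-30e 0.84. With the global mean, miR-130a reversed (0.031). Assays called with neither reference are not counted as reversed. Some of these also changed sign with the global mean, such as miR-16 (0.27) and miR-125a-5p (0.86). snoRNA202 fell against U6, so with it the change of every assay detected on all arrays of a card moves up by the same amount. Whether snoRNA202 fell or U6 rose per cell was not tested.

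The replicate numbers do not pair the arrays: correlations of same-numbered deviations were 0.05, -0.07 and 0.14 on card A and -0.14, 0.12 and -0.04 on card B. With the replicate block, 50 assays were higher and 112 lower at 72 h against 0 h, 8 hairpins were unequal, and 2 were higher and 96 lower against 60 h. The limits are technical replicates, Ct near 35 at 0 h for several assays, and a last time point named differently in the labels and the tables. Those assays include miR-182, miR-142-3p, miR-455*, miR-449a, miR-7b and miR-148b.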
